A study of Homo sapiens with 9 samples.

Results

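The nuclear genes for the subunits of respiratory complexes I, III, IV and the ATP synthase (complex V) were examined in liver cancer cells treated with THZ531. The genes were the protein-coding rows whose symbol begins with NDUFA, NDUFB, NDUFC, NDUFS, NDUFV, UQCR, COX4 to COX8 or ATP5, chosen by name and not by value. This gave 84 of 32990 genes: 39 for complex I, 9 for complex III, 17 for complex IV and 19 for complex V. The name rule also takes ATP5S, ATP5SL, COX7A2L, the read-through gene ATP5J2-PTCD1 and close copies such as ATP5EP2 and UQCRHL, which are not core subunits of the complexes.

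THZ531 binds covalently to CDK12 and CDK13, kinases that act on RNA polymerase II during elongation. Established human liver cancer lines were used: Hep3B and Huh7, which carry hepatocyte transcripts, and SNU449, which carries few of them. Poly(A) RNA was sequenced from 1 library for each line and dose: untreated cells, 250 nM and 500 nM THZ531, 9 libraries in all, with no genotype change and the same serum-containing medium labelled for each. Treatment lasted 48 h in every treated library by the sample characteristics. By the protocol text it lasted 48 h in SNU449 alone, with 24 h in the other lines, and if that holds, line and duration cannot be told apart.

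The respiratory chain sits in the inner mitochondrial membrane. Complexes I, III and IV pass electrons from NADH to oxygen and pump protons, and complex V uses the proton gradient to make ATP. Each of these combines nuclear subunits with a few subunits encoded in mitochondrial DNA, so their assembly draws on both genomes. Hepatocytes are rich in mitochondria and use this ATP for gluconeogenesis, urea synthesis and lipid handling.

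Promoters of such genes are known for sites of NRF1, GABPA (an ETS factor) and YY1, and 4 are shown here because their genes carry the contrasts described below: COX6A1 and NDUFS3 were among the subunit genes with the largest fitted increases, and NDUFV3 and NDUFS1 were below their controls in each treated Hep3B and Huh7 library. The windows are RefSeq sequence of GRCh38.p14, 250 bases before to 50 bases after the start that RefSeq annotates, written 5′ to 3′ on the gene's strand. For NDUFS3 and NDUFV3 that start lies kilobases inside the gene as drawn in the count table's annotation, which begins further upstream. Capitals mark TGCGCA (NRF1 core), CCGGAAG (ETS) and AAGATGG (YY1) on either strand, that is also CTTCCGG and CCATCTT. They lie at chr12:120437863-120438162 (plus strand, COX6A1), chr11:47578824-47579123 (plus, NDUFS3), chr21:42893059-42893358 (plus, NDUFV3) and chr2:206159395-206159694 (minus, NDUFS1, 1 of 2 windows listed).
COX6A1: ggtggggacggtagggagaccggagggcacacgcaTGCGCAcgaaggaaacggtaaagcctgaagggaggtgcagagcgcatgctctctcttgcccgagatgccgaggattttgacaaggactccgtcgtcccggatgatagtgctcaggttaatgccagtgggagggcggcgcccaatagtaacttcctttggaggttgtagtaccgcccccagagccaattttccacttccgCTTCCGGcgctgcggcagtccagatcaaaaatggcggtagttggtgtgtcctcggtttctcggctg
NDUFS3: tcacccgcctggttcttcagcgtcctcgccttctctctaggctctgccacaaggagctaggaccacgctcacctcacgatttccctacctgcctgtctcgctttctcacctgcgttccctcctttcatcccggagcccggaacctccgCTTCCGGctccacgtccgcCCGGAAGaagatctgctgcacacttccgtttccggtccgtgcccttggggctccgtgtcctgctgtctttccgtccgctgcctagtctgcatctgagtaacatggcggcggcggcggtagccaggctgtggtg
NDUFV3: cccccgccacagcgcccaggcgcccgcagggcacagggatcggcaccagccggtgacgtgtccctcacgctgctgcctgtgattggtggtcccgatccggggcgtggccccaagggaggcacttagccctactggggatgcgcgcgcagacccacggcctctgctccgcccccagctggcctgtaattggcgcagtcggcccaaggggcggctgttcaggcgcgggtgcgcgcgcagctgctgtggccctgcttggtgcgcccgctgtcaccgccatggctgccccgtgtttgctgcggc
NDUFS1: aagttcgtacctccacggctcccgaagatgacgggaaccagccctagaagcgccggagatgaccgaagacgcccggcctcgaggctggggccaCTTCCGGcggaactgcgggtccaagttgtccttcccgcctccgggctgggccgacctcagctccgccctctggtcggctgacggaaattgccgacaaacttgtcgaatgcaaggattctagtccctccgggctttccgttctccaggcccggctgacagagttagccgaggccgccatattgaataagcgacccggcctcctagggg
The COX6A1 window held 1 TGCGCA and 1 ETS match, the NDUFS3 window 2 ETS matches and the NDUFS1 window 1 ETS match. The NDUFV3 window held none of these letters. A window was found for 65 of the 84 genes. TGCGCA was in 18 of the 65 (27.7%), against 9.76% of the 27305 genes with a window. CCGGAAG was in 18 (27.7%), against 12.2%, and AAGATGG in 17 (26.2%), against 7.11%. At least 1 of these motifs was in 38 of the 65 (58.5%) and in 25.2% of the genes with a window. Those 27305 genes outnumber the 17629 protein-coding genes of the count table, so they were not limited to protein-coding or expressed genes. The 65 are all protein-coding, and the part of this in the motif shares was not tested. Among the genes called higher in both Hep3B and Huh7 (see the line responses), 8 of 11 with a window held at least 1 motif, against 30 of the other 54. The split was not the same for each motif: TGCGCA was in 4 of the 11 and 14 of the 54, CCGGAAG in 5 and 13, and AAGATGG in 1 and 16. These counts describe letters in a window, not binding.

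Total counts per library ran from 5701981 to 20657610, and 3 counts, the floor used for detection, equal 0.145 to 0.526 CPM (counts scaled to library size). Levels are CPM scaled with TMM factors, which set the bulk of genes level between libraries, so each change is relative to that bulk. Hepatocyte markers summed to 18690 to 88710 CPM in the Hep3B and Huh7 libraries and to 6.89 to 8.75 CPM in SNU449. In control, 250 and 500 nM libraries that sum was 23800, 33170 and 50440 CPM in Hep3B and 18690, 41220 and 88710 CPM in Huh7. Of the 9 hepatocyte markers, 8 lay above control and 1 below at 500 nM in Hep3B, and likewise in Huh7. The lowest log2 ratio to control was -0.98 in Hep3B and -1.46 in Huh7. Mesenchymal markers were at 6168 to 7248 CPM in SNU449, but at 3107 to 6701 CPM in Hep3B and 8290 to 21460 CPM in Huh7. Endothelial markers stayed at or below 3.50 CPM in sum. Immune markers summed to 76.7 to 619.8 CPM in Hep3B and Huh7, nearly all of it LYZ, with PTPRC and CD3E at 0 to 12 counts, and to at most 1.82 CPM in SNU449. Fibroblast markers summed to 23.6 to 1179 CPM over all libraries, with DCN at 0 to 1 count. Fewer cells of a kind and less RNA per cell cannot be told apart in such bulk libraries. The part of these shifts in the results below was not tested.

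Of the 84 genes, 75 passed the filter on low counts and were tested: 38 of complex I, 8 of complex III, 11 of complex IV and 18 of complex V. Of the 9 others, 6 are isoforms known from muscle, lung, testis or other tissues. COX6A2 and COX8C had 0 counts in each of the 9 libraries, and COX4I2, COX6B2, COX7A1 and COX7B2 had at most 1. The remaining 3 were NDUFA7 (1 to 9 counts), UQCRHL (0 to 4) and ATP5J2-PTCD1 (0 to 5). NDUFA7 shares 32.3% of its exonic bases with an annotated gene on the same strand, so its reads may have been left out as ambiguous; this was not tested. COX4I1, COX6A1, COX6B1 and COX8A thus supplied nearly all counts of their isoform pairs in the 3 lines.

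Per kilobase of exon, the catalytic ATP synthase subunit gene ATP5B had the highest control level of the 84 genes in each line, at 382.9 CPM per kb in Hep3B, 348.4 in Huh7 and 292.5 in SNU449. COX8A, COX6B1 and NDUFS5 followed in each line, at 90.3 to 168 CPM per kb. The exon length used joins the exons of all annotated transcripts of a gene, and for UQCRB it equals the whole gene span of 9715 bases. The order therefore depends on the annotation, and a gene with a long joined length may rank too low. COX8A and COX6B1 encode small complex IV subunits and NDUFS5 an accessory subunit of complex I. NDUFV2, a core iron-sulfur subunit, had only 5 to 62 counts per library, and 28.4% of its exonic bases are shared with an annotated gene on the same strand, so its values are uncertain.

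With THZ531, most subunit transcripts lay above the control of the same line in Hep3B and Huh7 and close to it in SNU449. The median log2 ratio over the 75 genes was 0.55 at 250 nM and 1.03 at 500 nM in Hep3B, and 0.53 and 1.0 in Huh7. The SNU449 medians were -0.03 and 0.00. The medians of all 15479 tested genes lay between -0.07 and 0.01 in these libraries. A rise of 2-fold or more at 500 nM was seen for 40 of 75 genes (53.3%) in Hep3B, where 18.6% of all genes had one, and for 40 of 75 in Huh7, where 24.0% did. A drop of 2-fold or more was seen for 1 of 75 in Hep3B and 4 of 75 in Huh7, against 13.1% and 19.3% of all genes. No subunit gene was 2-fold higher or lower in SNU449 at 500 nM, where 0.956% of all genes were 2-fold higher and 1.08% lower, and their log2 ratios ran from -0.62 to 0.96. These ratios have 1 library on each side and no test.

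**Figure D1:**
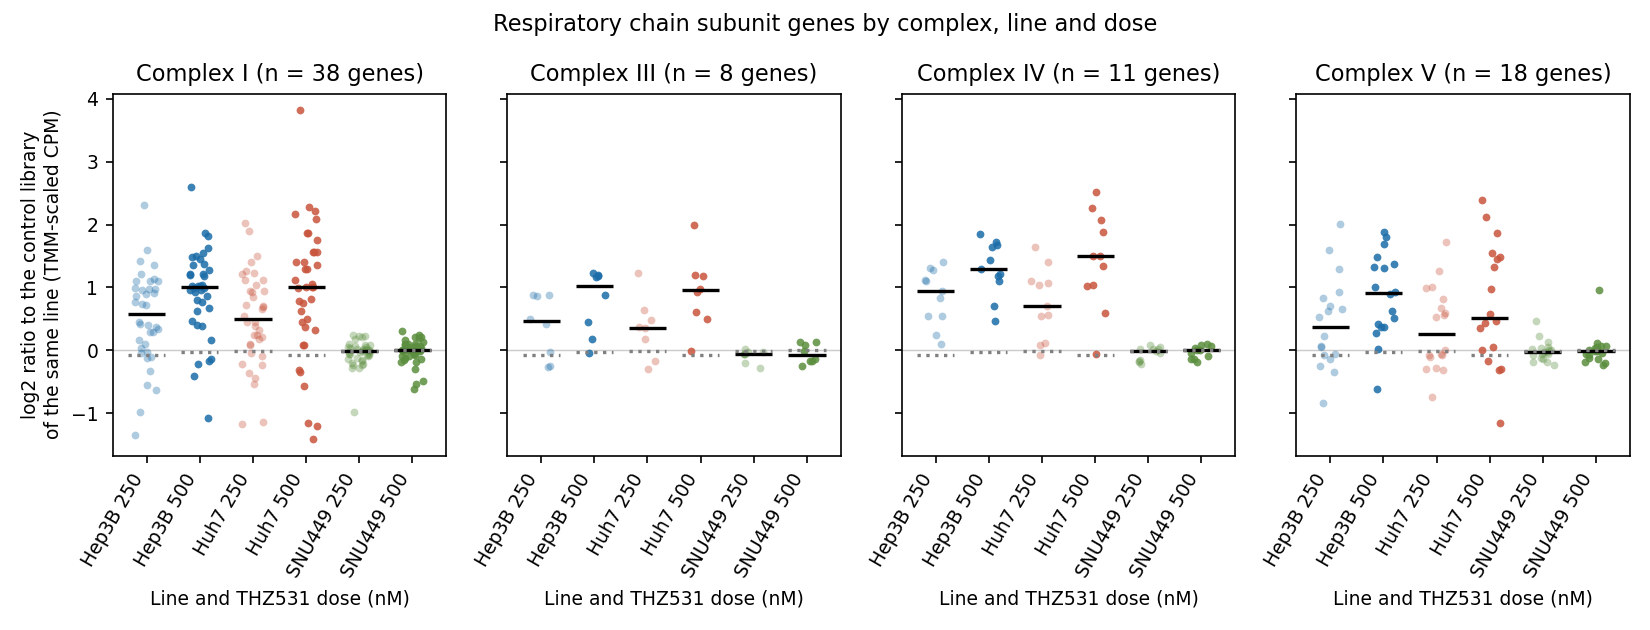
Each point is 1 subunit gene; the vertical axis is its log2 ratio of TMM-scaled CPM to the control library of the same line, the horizontal axis the line and THZ531 dose in nM. Black bars are medians of the complex and dotted grey bars medians of all tested genes; the Hep3B and Huh7 medians lie above 0 at both doses (complex IV highest, at 1.29 and 1.51 at 500 nM), and SNU449 points lie near 0.

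The complexes differed in how far they were shifted. Complex IV had the highest medians at 500 nM, 1.29 in Hep3B and 1.51 in Huh7, with 9 of 11 genes up 2-fold or more in each. Complex I had medians of 1.01 and 1.0, and complex III 1.03 and 0.96. Complex V had 0.91 in Hep3B and 0.52 in Huh7, with 8 and 7 of 18 genes up 2-fold or more. The differences between complexes were not tested.

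The scaling sets part of this rise. When libraries were scaled to their total counts alone, the median of all tested genes fell to -0.58 in Hep3B and -0.95 in Huh7 at 500 nM. The subunit medians were then 0.44 in Hep3B and 0.07 in Huh7, still above the bulk, but that of complex V in Huh7 turned to -0.43. With TMM factors 47 of the 75 genes lay above control in all 4 treated Hep3B and Huh7 libraries and 4 lay below, against 26.6% and 29.8% of all genes. With total counts these numbers were 35 and 18, against 15.3% and 53.3% of all genes. The 35 include ATP5B, COX6A1, COX8A, NDUFA4, NDUFS3 and UQCR10.

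In the fit that treats the 3 lines as replicates of a dose, 0 of 75 subunit genes passed an adjusted p of 0.05 for 500 nM against control (edgeR quasi-likelihood test, Benjamini-Hochberg over all genes), where 4.17% of all tested genes were called. At an unadjusted p under 0.05 there were 43 (57.3%), 42 of them higher, against 28.9% of all genes. The median fitted log2 fold change was 0.67, against -0.05 for all genes, and 67 of 75 were positive. DESeq2 called 20, all higher, with 10.1% of all genes called. Without SNU449 edgeR called 51 of 75, 49 higher and 2 lower, in a fit that called 41.6% of all genes. It called 46 without the SNU449 500 nM library alone (25.4% of all genes) and 12 without the Hep3B 250 nM library (8.60%). With total-count scaling, which called 17.5% of all genes, 1 gene, NDUFV3, was called lower.

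At 250 nM the same fit called 0 of 75 against control, with 1.21% of all genes called and 14 subunit genes, against 17.6% of all genes, at an unadjusted p under 0.05. DESeq2 also called 0 (1.54% of all genes), and leaving out SNU449 gave 30 (25.7%). The median was 0.31. Between 500 and 250 nM, edgeR and DESeq2 each called 0 of 75 and 0.0% of all genes, with 3 at an unadjusted p under 0.05 by either tool (2.19% of all genes in edgeR), although 68 of 75 fitted changes were positive with a median of 0.33. For the mean of both doses against control, 5.17% of all genes were called and, of the subunit genes, NDUFV3 alone was (lower, as were 1.72% of all genes; edgeR). DESeq2 called 16 (10.3% of all genes), and edgeR 47 without SNU449 (41.4%), 37 without its 500 nM library, 2 without its 250 nM library and 0 without any other single library or line. The shares of all genes called without single libraries are not given here, so those counts are not read as a trait of the subunits.

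Within lines, with the 250 and 500 nM libraries as 2 treated libraries, 19 subunit genes rose and 1 fell in Hep3B (edgeR, adjusted p under 0.05), where 16.5% of all genes were called, 9.81% higher and 6.73% lower. In Huh7 23 rose and 1 fell, where 19.3% of all genes were called, 13.3% higher and 6.04% lower. DESeq2 called 30 subunit genes in each line, with 15.1% of all genes called in Hep3B and 18.8% in Huh7. Calls of single genes in a line are those of edgeR unless DESeq2 is named. For SNU449, edgeR and DESeq2 called 0 of 75 and 0.0% of all genes, with 0 subunit genes and 0.439% of all genes at an unadjusted p under 0.05 in edgeR. The genes that rose in both Hep3B and Huh7 numbered 16, which is 84.2% of the Hep3B list and 69.6% of the Huh7 list. The 2 lines' calls come from 1 fit that shares its estimate of spread. The overlap over all genes is not given here, and over all genes the 500 nM ratios of these lines also correlated (Spearman 0.697). The overlap of the lists is therefore not read as particular to the subunits. With total-count scaling the calls became 2 higher and 2 lower in Hep3B (22.5% of all genes called) and 4 higher and 5 lower in Huh7 (30.8%). Those higher were ATP5B and NDUFV2 in both lines and NDUFS3 and COX6A1 in Huh7.

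These counts lean on single libraries. The Hep3B total of 20 was 0 when either treated Hep3B library was left out, 41 without either treated Huh7 library and 8 without either treated SNU449 library, while the share of all genes called went between 0.0% and 34.2%. The Huh7 total of 24 was 44 without the Huh7 250 nM library, 18 without the 500 nM one, 10 without either treated Hep3B library and 14 without either treated SNU449 library, with 12% to 39.1% of all genes called.

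The responses of the lines were also set against each other. The F test of equal responses called 0 of 75 (edgeR), where 1.14% of all genes were called, with 19 at an unadjusted p under 0.05 (17.0% of all genes) and 7 called by DESeq2 (4.99%). Without the Huh7 250 nM library it called 21 (15.1% of all genes), without the Huh7 500 nM library 5 (5.25%) and without the SNU449 500 nM library 1 (1.94%). The smallest adjusted p were 0.114 for NDUFS3, 0.132 for COX6A1 and 0.134 for ATP5B. For NDUFS3 the Huh7 response exceeded that of SNU449 by 1.94 ± 0.47 on the log2 scale (SE, adjusted p = 0.0624, edgeR). Neither pairwise difference from SNU449 passed the edgeR test for any subunit gene, with 0.342% of all genes called for Hep3B and 1.58% for Huh7. An unadjusted p under 0.05 was seen for 26 and 24 genes, against 16.0% and 18.2% of all genes, and DESeq2 called 1 and 9, with 2.82% and 5.28% of all genes called. Huh7 minus Hep3B had a median of -0.01 over the 75 genes, with 0 called by edgeR or DESeq2 (0.00646% of all genes in edgeR) and 0, against 6.64% of all genes, at an unadjusted p under 0.05.

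In complex I, the rises included core and accessory subunits. NDUFS3, a core subunit of the peripheral arm, had 66.1, 201 and 153 CPM in Hep3B at control, 250 and 500 nM, 41.2, 154 and 192 CPM in Huh7, and 41.0, 42.7 and 46.9 CPM in SNU449. All 4 treated Hep3B and Huh7 libraries were above each control. On the log2 scale the change in Hep3B was 1.42 ± 0.35 (SE; adjusted p = 0.0198), and that in Huh7 was 2.07 ± 0.37 (adjusted p = 0.00444, edgeR). Of its exonic bases 19.6% are shared with annotated genes on the same strand, and PTPMT1 is among its overlapping genes. NDUFA4, a small subunit first assigned to complex I and now placed with complex IV, had 138, 355 and 504 CPM in Hep3B, 99.2, 238 and 484 CPM in Huh7, and 67.9, 65.5 and 70.5 CPM in SNU449. Its change was 1.64 ± 0.46 in Hep3B and 1.86 ± 0.46 in Huh7 (adjusted p = 0.0317 and 0.0183, edgeR). The levels increased with dose in Hep3B and Huh7 and were flat in SNU449.

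NDUFB2, an accessory membrane-arm subunit, had 26.9, 59.2 and 75.8 CPM in Hep3B, 38.9, 91.7 and 142 CPM in Huh7, and 27.8, 27.6 and 30.4 CPM in SNU449, with a change of 1.58 ± 0.37 in Huh7 (adjusted p = 0.0147, edgeR). Other complex I genes called in both lines were NDUFA1, NDUFA12, NDUFB7, NDUFB9, NDUFB11, NDUFS5, NDUFS6 and NDUFV2. All of these but NDUFV2 encode accessory subunits. NDUFA1, NDUFB2 and NDUFB11 share 35.1% to 44.9% of their exonic bases with genes on the opposite strand, and it is not stated whether the counting used strand. NDUFV2 had 13, 38 and 36 counts in Hep3B, 19, 36 and 62 in Huh7, and 13, 5 and 9 in SNU449. NDUFA11, an accessory membrane-arm subunit with 30.6, 37.6 and 61.1 CPM in Hep3B and 19.4, 25.4 and 57.7 CPM in Huh7, was not called in either line (edgeR adjusted p of 0.311 and 0.128).

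NDUFV3 moved the other way. It encodes a small accessory subunit beside the NADH-binding NDUFV1, and lies at chr21:42879644-42913304 in the table's GRCh38 coordinates. NDUFV3 had 41.6, 16.4 and 19.7 CPM in Hep3B, 27.4, 12.4 and 10.2 CPM in Huh7, and 31.0, 26.4 and 27.1 CPM in SNU449. It was below its control in 6 of 6 treated libraries, by little in SNU449. On the log2 scale it fell by 1.20 ± 0.30 in Hep3B and by 1.26 ± 0.31 in Huh7 (edgeR adjusted p of 0.0195 and 0.0176), and by 0.91 ± 0.24 for the mean of both doses (adjusted p = 0.0444). That last call is lost with RLE factors and without the line term.

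The core electron-transfer subunits of complex I did not move as a unit. NDUFV1, the NADH-binding flavoprotein, had 183, 245 and 364 CPM in Hep3B, 271, 443 and 806 CPM in Huh7, and 78.8, 81.9 and 79.2 CPM in SNU449. NDUFS1, the large iron-sulfur subunit, had 154.5, 99.4 and 117 CPM in Hep3B, 177, 122 and 79.5 CPM in Huh7, and 159.5, 153 and 161 CPM in SNU449. NDUFV1 levels were above and NDUFS1 levels below control in all 4 treated Hep3B and Huh7 libraries, but neither passed the test in a line (adjusted p = 0.242 and 0.308 in Hep3B, 0.0701 and 0.115 in Huh7, edgeR); DESeq2 called NDUFV1 in Huh7. With total-count scaling NDUFS1, NDUFB5 and NDUFS4, along with ATP5S and NDUFV3, were called lower in Huh7. The other genes below control in all 4 libraries were NDUFS4, a subunit mutated in Leigh syndrome, and ATP5S, a factor linked to the ATP synthase.

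**Figure D2:**
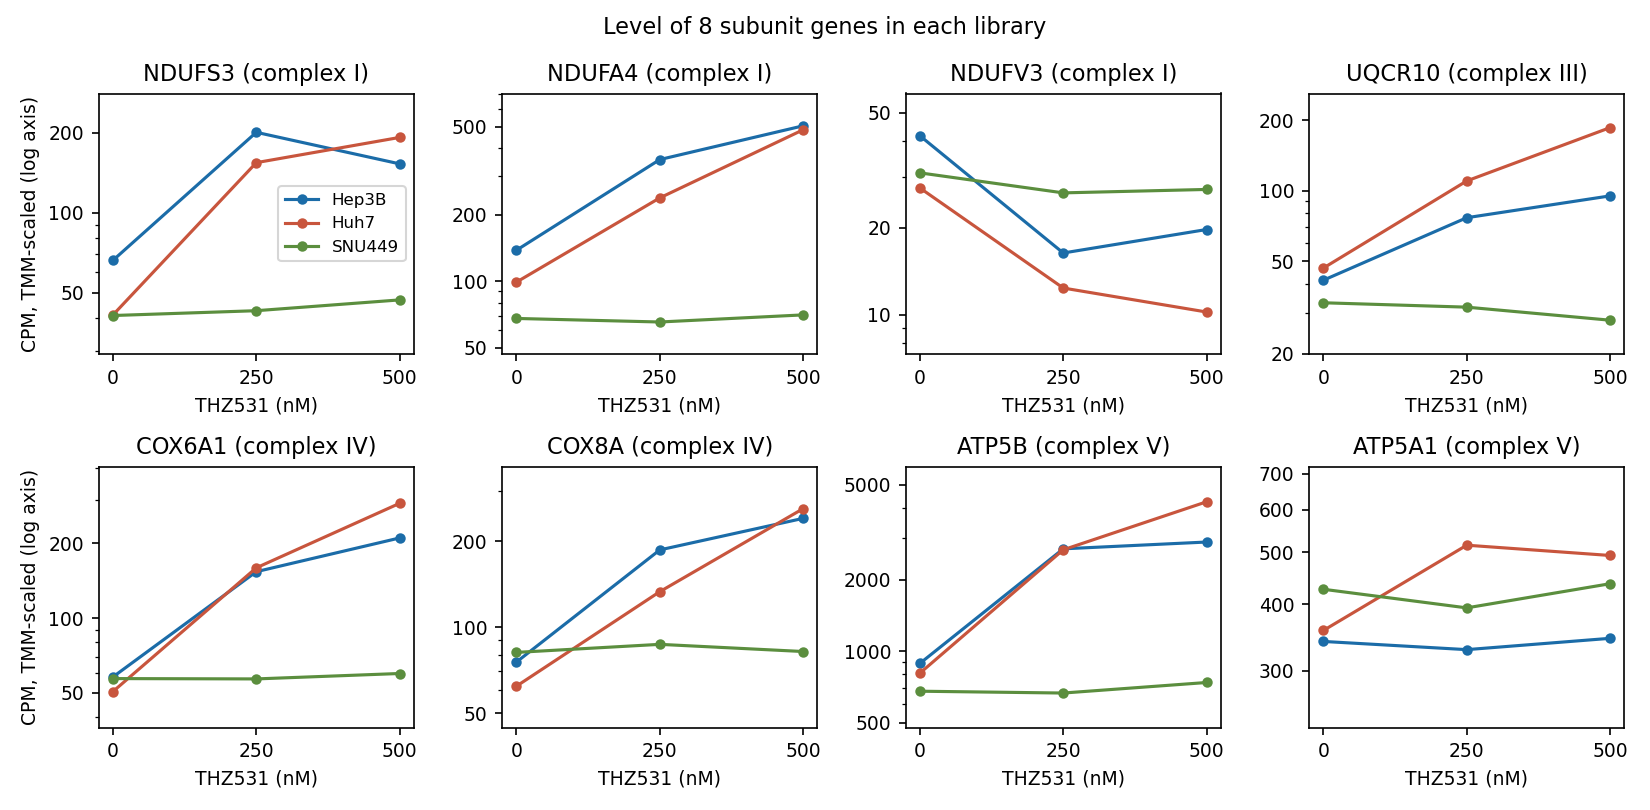
TMM-scaled CPM (log axis) of 8 subunit genes against THZ531 dose in nM, 1 point per library and 1 line per cell line. In Hep3B and Huh7, 6 of these genes lie above control at both doses, NDUFV3 lies below and ATP5A1 stays closer to control, while the SNU449 lines stay near level.

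In complex III, edgeR called UQCR10 in Huh7 and no other gene in a line, while DESeq2 also called UQCRB, UQCR10 and UQCRH in Hep3B. UQCR10, a small subunit, had 41.4, 76.6 and 95.02 CPM in Hep3B, 46.7, 110 and 186 CPM in Huh7, and 33.1, 31.7 and 27.9 CPM in SNU449, and its Huh7 change was 1.66 ± 0.39 (adjusted p = 0.0149, edgeR). The Hep3B change was 1.05 ± 0.38 (adjusted p = 0.0772, edgeR), and the difference between these lines did not pass. UQCRH, the hinge protein that binds cytochrome c1, had 102, 188 and 241 CPM in Hep3B, 74.7, 117 and 171 CPM in Huh7, and 115, 112 and 114 CPM in SNU449. Its adjusted p was 0.0636 in Hep3B and 0.0872 in Huh7, and near-identical copies such as UQCRHL make its counts uncertain. The 2 core proteins split: UQCRC1 had 115, 154 and 212 CPM in Hep3B and 162, 227 and 321 CPM in Huh7, whereas UQCRC2 had 126, 106 and 143 CPM in Hep3B and 74.0, 65.9 and 73.3 CPM in Huh7. UQCRFS1, the Rieske iron-sulfur protein, had 79.4, 77.7 and 76.8 CPM in Hep3B and 74.1, 94.9 and 105 CPM in Huh7. None of these 3 was called in a line, and in SNU449 they had 104 to 202 CPM.

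In complex IV, COX6A1, COX6C and COX8A had the highest ratios at 500 nM in Hep3B and Huh7, and COX4I1 came next in Huh7. COX6A1, at chr12:120438090-120440742, had 58.0, 154 and 210.2 CPM in Hep3B, 50.7, 159 and 289.7 CPM in Huh7, and 57.1, 57.0 and 59.9 CPM in SNU449. The controls lay between 50.7 and 58.0 CPM, and the treated Hep3B and Huh7 libraries lay above all SNU449 libraries. The change was 1.65 ± 0.42 in Hep3B and 2.14 ± 0.43 in Huh7 (edgeR adjusted p of 0.0223 and 0.00776). COX6A1 also had the smallest adjusted p of the 75 genes at 500 nM in the dose fit, 0.0551 with a change of 1.44 ± 0.39. COX6C had 42.3, 103 and 140 CPM in Hep3B, 58.3, 154 and 281 CPM in Huh7, and 71.2, 64.3 and 66.7 CPM in SNU449. COX8A had 75.5, 187 and 241 CPM in Hep3B, 62.1, 133 and 260.3 CPM in Huh7, and 81.6, 87.1 and 82.2 CPM in SNU449. Both were called in both lines, with changes of up to 1.90 for COX6C and 1.66 for COX8A, in Huh7. COX8A shares 34.5% of its exonic bases with an annotated gene on the same strand.

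COX4I1, the largest nuclear subunit of the enzyme and its regulatory ATP-binding part, had 158, 341 and 430.4 CPM in Hep3B, 234, 491 and 858 CPM in Huh7, and 245.5, 240 and 246 CPM in SNU449. It passed in Huh7 (1.53 ± 0.42, adjusted p = 0.0258) and not in Hep3B (1.28 ± 0.41, adjusted p = 0.0518, edgeR). COX5A, the subunit that sits beside COX4I1, had 69.0, 74.0 and 95.5 CPM in Hep3B, 103, 109 and 98.9 CPM in Huh7, and 71.1, 72.04 and 75.9 CPM in SNU449. Its changes were 0.30 ± 0.32 in Hep3B and 0.02 ± 0.32 in Huh7, not called. In edgeR COX7A2 passed in Hep3B alone and COX7B in Huh7 alone, whereas DESeq2 called COX4I1, COX7A2 and COX7B in both lines.

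The COX7A family shifted toward COX7A2, the liver form of that subunit, in Hep3B and, at 500 nM, in Huh7. Of the COX7A counts, COX7A2 made up 54.4%, 68.6% and 69.5% in Hep3B at control, 250 and 500 nM (95% exact interval 52.5 to 56.2 at control and 67.7 to 71.2 at 500 nM) and 67.7%, 70.1% and 77.8% in Huh7. In SNU449 it was 40.1%, 36.5% and 36.6%. The rest was nearly all COX7A2L, a factor for respiratory supercomplexes. COX7A1, the heart and muscle form, had at most 1 count per library.

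In complex V, the transcripts of the alpha and beta subunits of the F1 head diverged. ATP5B, the beta subunit, had 889, 2691 and 2874 CPM in Hep3B, 809, 2666 and 4241 CPM in Huh7, and 679, 667 and 739 CPM in SNU449. The log2 change was 1.65 ± 0.42 in Hep3B and 2.09 ± 0.43 in Huh7 (edgeR adjusted p of 0.0215 and 0.0081), against 0.05 ± 0.39 in SNU449, which did not pass. ATP5A1, the alpha subunit, had 340.5, 329 and 345 CPM in Hep3B, 357, 515 and 493 CPM in Huh7, and 426, 393 and 436 CPM in SNU449, with a change of -0.02 ± 0.32 in Hep3B and 0.50 ± 0.33 in Huh7. Alpha and beta alternate in equal number in the F1 head, whereas their transcripts did not keep one ratio in Hep3B and Huh7. ATP5E, the epsilon subunit of the central stalk, had 133, 325.5 and 463 CPM in Hep3B, 89.0, 214 and 388 CPM in Huh7, and 159.8, 140.5 and 159 CPM in SNU449, and was called in both lines (1.57 ± 0.43 and 1.76 ± 0.44). The copy ATP5EP2 had 4 to 13 counts per library, so reads of the pair could be split. In edgeR ATP5D and ATP5I were called in Huh7 alone, whereas DESeq2 called ATP5D in both lines, and ATP5I shares 61.6% of its exonic bases with MYL5 on the opposite strand.

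No gene of the membrane ring or the peripheral stalk passed the test in a line. ATP5F1, the b subunit of that stalk, had 116, 110.1 and 149.8 CPM in Hep3B and 88.2, 81.7 and 88.9 CPM in Huh7. The c subunit of the rotor ring comes from 3 genes that encode the same mature protein. ATP5G3 gave 42.5%, 38.2% and 35.8% of their counts in Hep3B at control, 250 and 500 nM, 52.5%, 48.3% and 40.3% in Huh7, and 39.3%, 39.3% and 41.3% in SNU449. Its share was lower at each dose step in Hep3B and Huh7. In Hep3B the exact 95% intervals at 250 nM (36.7 to 39.8) and 500 nM (34.2 to 37.4) overlapped. ATP5S, which lay below control in Hep3B and Huh7 at 10.8, 5.99 and 7.01 CPM and 10.4, 6.13 and 4.58 CPM, had 11.1, 12.2 and 11.1 CPM in SNU449 and was not called (edgeR adjusted p of 0.147 and 0.0891). ATP5J2 and ATP5L, small membrane subunits, did not pass in a line in edgeR but did in DESeq2 (ATP5L in both lines, ATP5J2 in Hep3B), with 33.3, 59.7 and 86.1 CPM for ATP5J2 and 94.9, 180.1 and 264 CPM for ATP5L in Hep3B.

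The pairs within a complex can be compared by counts in the same library, free of any scaling between libraries. The ratio of ATP5B to ATP5A1 counts was 2.61, 8.19 and 8.33 in Hep3B at control, 250 and 500 nM, 2.27, 5.17 and 8.60 in Huh7, and 1.59, 1.70 and 1.69 in SNU449. Exact 95% intervals were 8.03 to 8.64 at 500 nM and 2.55 to 2.68 at control in Hep3B, and 8.20 to 9.04 and 2.20 to 2.33 in Huh7. NDUFV1 to NDUFS1 was 1.18, 2.46 and 3.13 in Hep3B, 1.54, 3.63 and 10.1 in Huh7, and 0.494, 0.535 and 0.492 in SNU449. Each treated ratio of these pairs was at least 2-fold its control in Hep3B and Huh7, and in SNU449 the ratios stayed close to their control.

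COX4I1 to COX5A was 2.30, 4.60 and 4.51 in Hep3B, 2.28, 4.52 and 8.67 in Huh7, and 3.45, 3.33 and 3.24 in SNU449. UQCRC1 to UQCRC2 was 0.910, 1.45 and 1.49 in Hep3B, 2.19, 3.45 and 4.38 in Huh7, and 1.45, 1.53 and 1.51 in SNU449. These intervals cover counting error only, and there is 1 library for each value. Each pair thus left its control ratio in Hep3B and Huh7 by more than its counting error. The pairs were chosen with the genes' levels in view.

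**Figure D3:**
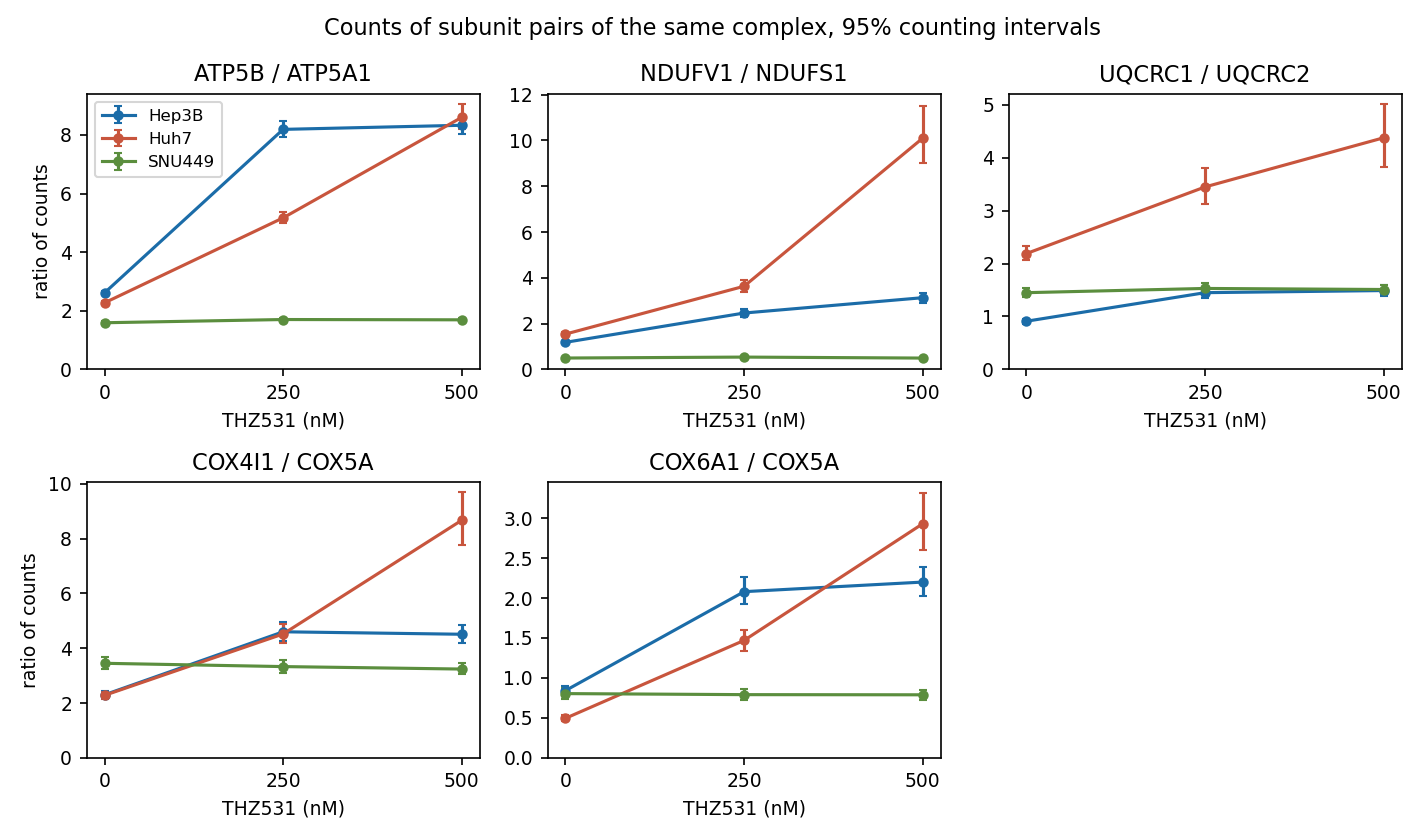
Ratio of the counts of 5 subunit pairs of the same complex against THZ531 dose in nM; points are single libraries and bars 95% exact counting intervals. Ratios increase in Hep3B and Huh7 (ATP5B to ATP5A1 reaches 8.33 and 8.60 at 500 nM) and are nearly level in SNU449.

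The same genes led in Hep3B and Huh7. Across the 75 genes the log2 ratios of the 2 lines at 500 nM had a Spearman correlation of 0.902, against 0.697 over 15479 genes. At 250 nM the values were 0.845 and 0.680. The genes in the wider set were not matched to the subunit genes in level or depth of counts. The higher values are therefore not read as particular to the subunits. SNU449 ratios at 500 nM correlated with Hep3B at -0.008 and with Huh7 at 0.023 across the 75 genes. The points are genes of the same libraries and not independent, and a line's 250 and 500 nM ratios share a control. NDUFV2 was farthest out, at 2.60 in Hep3B and 3.82 in Huh7 from few counts, followed in Huh7 by COX6A1 at 2.51, ATP5B at 2.39, NDUFA4 at 2.28 and COX6C at 2.27.

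**Figure D4:**
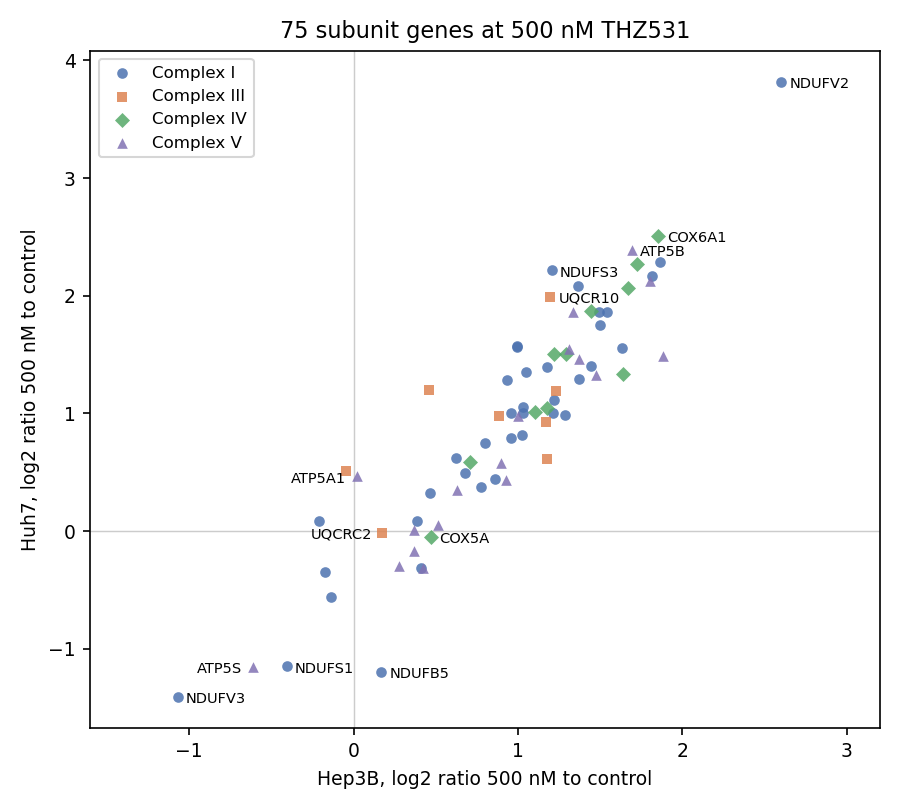
Log2 ratio of 500 nM to control for 75 subunit genes in Hep3B (horizontal axis) and Huh7 (vertical axis), with the complex given by colour and shape. The points follow one diagonal (Spearman 0.902), with NDUFV3, NDUFS1 and ATP5S at the low end and NDUFV2, COX6A1 and ATP5B at the high end.

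Subunit genes are short. Their median span was 11975 bases, against 28119 bases for all tested genes. Across the 75 genes the 500 nM ratio was lower for longer genes, with a Spearman correlation of -0.380 in Hep3B and -0.422 in Huh7, and across all genes -0.318 and -0.439. In SNU449 it was 0.306 over the 75 genes and 0.078 over all genes at 500 nM, and -0.01 over the 75 genes at 250 nM. The part of gene length in the subunit shift was not tested.

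The whole group took a larger share of each treated Hep3B and Huh7 library. The 84 genes made up 0.724%, 0.915% and 1.02% of counts in Hep3B at control, 250 and 500 nM, 0.711%, 0.887% and 0.964% in Huh7, and 0.680%, 0.666% and 0.674% in SNU449 (95% exact intervals within 0.01 of each value). ATP5B alone was 14.6%, 26.2% and 22.1% of the group's counts in Hep3B, 14.3%, 26.9% and 28.6% in Huh7, and 11.8%, 11.97% and 12.8% in SNU449. Without ATP5B the share was 0.619%, 0.675% and 0.797% in Hep3B and 0.610%, 0.648% and 0.688% in Huh7. Complex IV had 0.102%, 0.145% and 0.173% in Hep3B and 0.114%, 0.146% and 0.180% in Huh7. Complex III had 0.0800%, 0.0794% and 0.0924% in Hep3B, higher than control at 500 nM alone. In Huh7 it had 0.0796%, 0.0766% and 0.0810%, a nearly level share.

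The mitochondrially encoded partners of these subunits also took a larger share of treated Hep3B and Huh7 libraries, by a larger factor than the nuclear subunits. Counts from mitochondrial genes made up 4.28%, 10.6% and 12.4% of the library in Hep3B, 3.85%, 8.14% and 13.1% in Huh7, and 4.32%, 4.34% and 4.47% in SNU449. Of the 13 mitochondrially encoded subunits, 10 were called higher in Hep3B and 12 in Huh7, against 9.81% and 13.3% of all genes (edgeR). In these lines 0 were called lower. In SNU449 0 were called, as were 0.0% of all genes (0 of the 13 at an unadjusted p under 0.05, and 0 in DESeq2). In the dose fit at 500 nM edgeR called 0 of 13 (4.17% of all genes), although all 13 had an unadjusted p under 0.05 (28.9% of all genes). DESeq2 called 10 (10.1% of all genes). MT-CO1, the catalytic core of complex IV, had 4707, 15210 and 22100 CPM in Hep3B, 6273, 20110 and 46480 CPM in Huh7, and 6601, 6350 and 6159 CPM in SNU449. Nuclear subunit counts per mitochondrially encoded subunit count were 0.197, 0.109 and 0.106 in Hep3B, 0.195, 0.129 and 0.0922 in Huh7, and 0.175, 0.174 and 0.176 in SNU449 cells. Poly(A) selection captures mitochondrial and nuclear transcripts differently, so the ratio is comparable between libraries only, and its part in the shift was not tested.

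**Figure D5:**
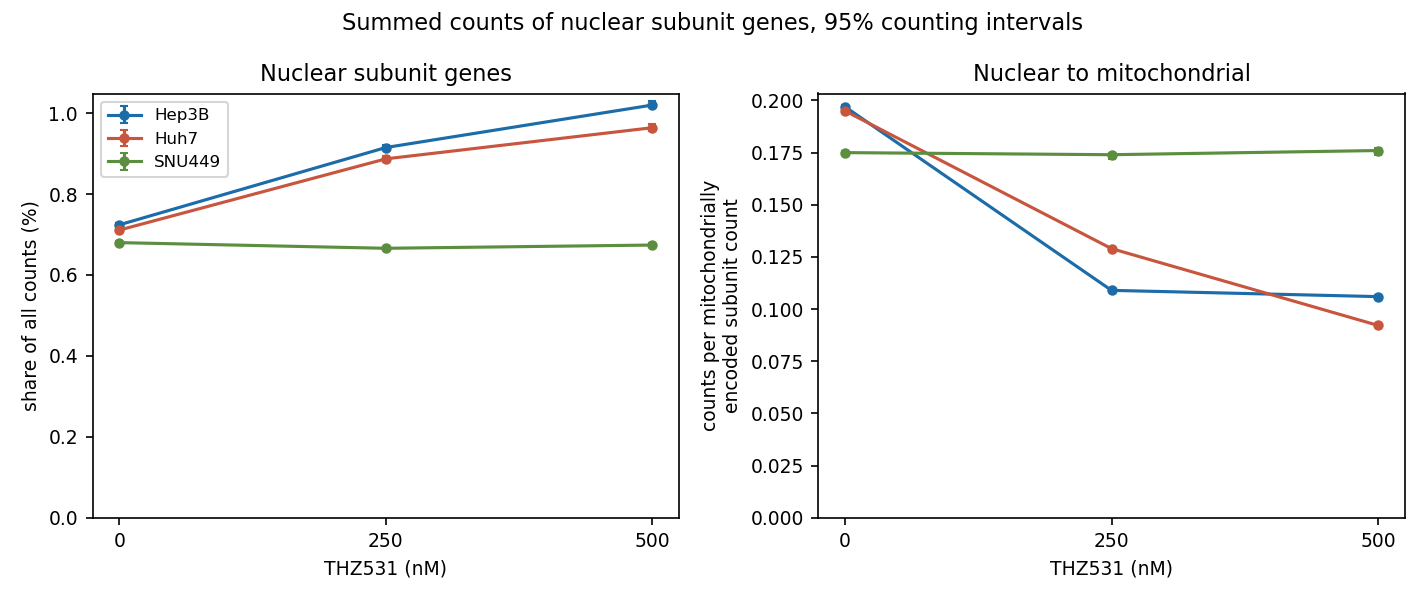
Left, the share of all counts in percent from the 84 nuclear subunit genes; right, their counts per mitochondrially encoded subunit count; horizontal axes give THZ531 dose in nM, points are single libraries and bars 95% exact counting intervals. In Hep3B and Huh7 the share goes up while the ratio goes down, and SNU449 is nearly level in both.

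Related gene lists, whose members were chosen like the subunits with earlier results known, gave the following counts. At 500 nM edgeR called 4.17% of all genes and DESeq2 10.1%, and 28.9% had an unadjusted p under 0.05 in edgeR. Of 4 complex II genes, which are wholly nuclear and link the chain to succinate, 0 were called at 500 nM by edgeR or DESeq2 (0 at an unadjusted p under 0.05), and SDHD was called in Huh7 (1.05 ± 0.32, adjusted p = 0.0409, edgeR). SDHA, its flavoprotein, had 110, 79.3 and 74.6 CPM in Hep3B and 92.4, 74.0 and 68.5 CPM in Huh7, without passing. Of 45 assembly factors 1 was called at 500 nM, SCO2, a copper chaperone for complex IV (2.12 ± 0.51, adjusted p = 0.0361), and the median was -0.03. SCO2 had 18.6, 102 and 94.0 CPM in Hep3B, 10.3, 69.7 and 142 CPM in Huh7, and 7.97, 9.62 and 10.2 CPM in SNU449. SCO2 overlaps TYMP on the same strand in the annotation. In the lines 2 genes of this list rose and 3 fell in Hep3B (1 in DESeq2), and 2 rose and 5 fell in Huh7. The shares of all genes were 9.81% higher and 6.73% lower in Hep3B and 13.3% and 6.04% in Huh7. LYRM7, which serves the Rieske protein, fell in both lines (edgeR adjusted p of 0.0414 and 0.0122). The list also takes ATPIF1, an inhibitor of the ATP synthase and not an assembly factor. ATPIF1 was among those that rose in Hep3B (1.32 ± 0.35, adjusted p = 0.0257, edgeR).

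Of 12 electron carrier and coenzyme Q genes 1 was called at 500 nM, where edgeR called 4.17% of all genes. It was COQ9, which binds lipid intermediates of coenzyme Q synthesis. COQ9 had 22.1, 8.02 and 5.37 CPM in Hep3B, 13.97, 8.09 and 3.77 CPM in Huh7, and 27.8, 25.7 and 22.8 CPM in SNU449, and fell by 1.34 ± 0.35 (adjusted p = 0.0498, edgeR). Of 14 transcription regulators 0 were called at 500 nM by edgeR or DESeq2, against 4.17% and 10.1% of all genes. At an unadjusted p under 0.05 there were 0, against 28.9% of all genes in edgeR. In Hep3B 2 regulators fell in edgeR, ESRRA and TFB1M, where 6.73% of all genes were called lower, and 0 fell in DESeq2. In Huh7 POLRMT, the mitochondrial RNA polymerase, rose to 238 and 303 CPM at 250 and 500 nM, against 67.0 CPM in the control. NRF1 had 16.4, 13.8 and 9.10 CPM in Hep3B and 15.7, 13.6 and 10.8 CPM in Huh7 and was not called.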

How the data were processed

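Gene counts were used as deposited by the authors, as whole raw counts per Ensembl gene for 9 libraries. Per the submitters' processing notes, HISAT2, HTSeq and GRCh38 were used; no version, annotation release or strand setting is given in the sources used here. Per the labels' protocols the libraries were poly(A)-selected and stranded. The subunit genes, the lists and the tests were chosen with earlier results of these data known.

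Counts were fitted with edgeR 4.0.16 (R 4.3.3): TMM factors, filterByExpr on the dose groups (15479 of 32990 genes kept), a two-sided quasi-likelihood test, and p-values adjusted by Benjamini-Hochberg over every tested gene, with a threshold of 0.05. One model had line and dose as terms (4 residual degrees of freedom); the line pairs the libraries by design, since each control and its treated libraries come from 1 cell line. The other had, for each line, a baseline and a term for treatment (3 residual degrees of freedom). No label says that cultures were separate, so the p-values reflect only how these libraries spread. In the model with a treatment term for each line, the single control of a line sets its baseline. The spread there is the difference between the doses within lines, so a dose effect counts as spread. In the model with line and dose, the spread is how far the lines differ in their dose changes. Either spread may also be partly technical, which was not tested. Within-line log2 ratios used TMM-scaled CPM with a prior count of 2. Intervals for shares and ratios are Clopper-Pearson at 95% and, like floors, cover counting error only. Exonic lengths and overlaps came from GENCODE v29, which held all 84 genes, 81 of them at the same place. The fits were run on simulated data with 200 genes changed alike in every line and at both doses. The lines respond unequally in the real data, so that run does not show how the fits do there. Alternatives were DESeq2 1.42.0, RLE factors, library totals, no filter, no line term, a prior count of 0.5, only the libraries compared, and leaving out lines or libraries.

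Genes described with statistics were, in each complex, the 3 with the smallest p and the highest and lowest fitted change at 500 nM, the 3 that ranked first in the F test, and a set of central subunits; NDUFB5, NDUFS4, COX7A2, COX7B, ATP5D, ATP5I and the related genes named were chosen after their values were seen.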

Additional observations from a re-analysis of the deposited data

How the results depend on the processing

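Calls among the 75 subunit genes depended on scaling, filter and tool. Counts given without the share of all genes called show how far calls moved, not a trait of the subunits. At 500 nM against control the 0 calls became 1 with library totals, 17 without a filter on low counts (82 subunit genes tested) and 20 in DESeq2; at 250 nM they became 2 without the filter. For the mean of doses the 1 call became 4 with library totals, 0 with RLE factors, 13 without the filter, 16 in DESeq2 and 0 without the replicate block for line. With library totals the Hep3B calls numbered 4 and the Huh7 calls 9. The F test gave 4 without the filter and 7 in DESeq2. Leaving out a line or library gave 0 to 51 calls at 500 nM, 0 to 30 at 250 nM, 0 to 0 between doses, 0 to 47 for the mean of doses, 0 to 41 in Hep3B, 10 to 44 in Huh7, 0 in SNU449 and 0 to 21 for the F test; where 1 treated library of a line was left, it was assumed to vary like the others. The dose-fit median at 500 nM stayed positive, from 0.45 to 1.04 over these and 0.15 with library totals. With library totals the within-line medians were 0.14 and 0.44 in Hep3B at 250 and 500 nM and 0.042 and 0.069 in Huh7. Over nuclear genes alone the subunit shares were 0.757%, 1.02% and 1.17% in Hep3B, 0.740%, 0.965% and 1.11% in Huh7, and 0.711%, 0.696% and 0.705% in SNU449. Among the 25 genes named by rule, 6 fitted changes turned round at 500 nM, none of them called: with library totals UQCRC2 (-0.44), COX5A (-0.34), UQCRFS1 (-0.32) and ATP5A1 (-0.34), and on leaving out lines or libraries UQCRC2 (-0.012 to 0.13) and COX5A (-0.020 to 0.28), negative without Hep3B; 34 values passed the threshold under an alternative and 110 kept their side of it. Apart from library totals, where the median of all genes moves, the cause was not tested. Depth limits NDUFV2, ATP5EP2 and NDUFA4L2, which have 2 to 62 counts per library.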
